A study of Homo sapiens with 13 samples.

Results

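The genes described here encode collagens, laminins and a set of matrix glycoproteins and proteoglycans. They were chosen by name, namely every collagen chain, every laminin chain, and FN1, POSTN, NID1, NID2, LUM, DCN, SPP1, SPARC, FBN1, FBN2, TNC, THBS1, THBS2 and VCAN, wherever they stood in the tables of genes that changed between human embryonic stem cells and germ cell-like cells. The tables together list 9706 genes, and 64 of them are matrix genes by this rule, 40 collagen chains, 11 laminin chains and 13 glycoproteins or proteoglycans. GENCODE 44 holds 70 protein-coding genes that match the names. The other 6 (COL10A1, COL27A1, COL4A3, COL8A1, FBN1 and LAMB3) are not in the tables used here and have no value.

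Bulk RNA sequencing gave 10 libraries, 2 for each of 5 groups, on the way from stem cells to primordial germ cell-like cells (PGCLCs). 4i ESC were WIS2 human embryonic stem cells with NANOS3-tdTomato and DMRT1-Venus reporters and no transgene. They grew on irradiated mouse embryonic fibroblasts in medium with LIF, bFGF and TGF-beta, in which GSK3, ERK, p38 and JNK were inhibited, and cells positive for TNAP (an alkaline phosphatase) were sorted. N3+PGCLC were made from the same reporter cells with BMP2 at 500 ng per ml, SCF at 100 ng per ml, EGF at 50 ng per ml and a ROCK inhibitor at 10 µM, and cells positive for TNAP and NANOS3 were taken. DM+PGCLC were switched on day 3 to activin A at 100 ng per ml and retinoic acid at 20 µM with SCF and EGF, and were cultured for 6 more days. Their sort is given as TNAP and NANOS3, although their name refers to DMRT1. DZ+PGCLC were a different reporter line, with DAZL-tdTomato, SOX17 that dexamethasone activates and DMRT1 that doxycycline induces. They had BMP2, SCF, EGF, the ROCK inhibitor and dexamethasone for 1 day, then dexamethasone and doxycycline with SCF, EGF, retinoic acid and activin A for 2 days. DAZL-positive cells were taken by sorting at day 4 to give d4 DZ+PGCLC and at day 8 to give d8 DZ+PGCLC. The culture days given in the labels end before either sort. For DAZL-positive cells of such a line, the study describes induction of both transgenes over 4 and 8 days. Line, transgenes, cytokines, days and sort gate differ together between the DZ+PGCLC and the other groups and cannot be told apart.

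The extracellular matrix is the protein network that cells secrete and hold on to. Fibrillar collagens (types I, II, III, V and XI) form the cables of connective tissue. Collagen IV and laminin form the 2 sheets of the basement membrane, laminin as a trimer of an alpha, a beta and a gamma chain, and the nidogens bridge them. Collagen VI makes beaded filaments beside the basement membrane, and the matricellular proteins (SPP1, SPARC, POSTN, TNC, THBS1, THBS2) act on cells and on the network rather than as its main scaffold. Fibronectin and laminin are the substrates on which migrating germ cells are usually described, and pluripotent cells themselves are kept on laminin or fibronectin coats.

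Levels are log2(RPKM + 0.1), in which RPKM is the read count of a gene scaled to its transcript length and to the mapped reads of the library, so levels can be set side by side between genes. A gene listed at 0 RPKM has a level of -3.32. Differences are on the same log2 scale and are given ± SE from a limma fit over all 10 libraries. The fit shares the spread of a gene over all 5 groups. The SE of a comparison, and the loss of a call, thus also reflect replicate gaps in groups outside it. A gene was called higher or lower at an adjusted p (Benjamini-Hochberg over the 9706 listed genes) under 0.05 and a difference over 1, which is 2-fold. The listed genes had passed the authors' FDR in at least 1 of 3 comparisons with 4i ESC (those of d8 DZ+PGCLC, DM+PGCLC and N3+PGCLC) on these same libraries, so genes that differ there are favoured in every count against 4i ESC, for matrix genes and for all listed genes alike. The 4 comparisons with 4i ESC share the same 2 control libraries. The study's methods call the libraries of a group independent biological replicates. In bulk RNA, fewer cells of a type and less RNA per cell cannot be told apart.

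Relative sequencing depth was judged from the most common ratio of low values between a library and 4i ESC replicate 1, whose depth is set to 1. It was lowest, at 0.667, for d4 DZ+PGCLC replicate 2 and highest, at 1.137, for replicate 1 of d8 DZ+PGCLC. Between 353 and 1036 of the listed genes were at 0 in a library. Of the matrix genes, 58 reached 1 RPKM in the mean of at least 1 group and 6 did not, and 25 values of 9 matrix genes were at 0. The genes that the group names refer to, NANOS3, DMRT1 and DAZL, were checked. NANOS3 had 0 RPKM in the 2 libraries of 4i ESC, at levels of 3.25 to 5.79 in N3+PGCLC and DM+PGCLC, and at -1.49 or below in all 4 DZ+PGCLC libraries. DAZL was at levels of 1.27 to 3.51 in the DZ+PGCLC libraries and at -2.45 or below in the other 6. DMRT1 was at levels of 6.35 and 6.38 in DM+PGCLC and of 1.00 to 1.55 in 4i ESC and N3+PGCLC. In the DZ+PGCLC libraries, whose line carries a DMRT1 transgene, it was at 12.01 to 12.42. Libraries of 1 group were not equally alike in their matrix genes. Replicates differed by over 1 on the log2 scale for 25.0% of the matrix genes in 4i ESC, 35.9% in N3+PGCLC and 34.4% in DM+PGCLC, against 8.6%, 15.9% and 11.4% of all listed genes, and for 12.5% and 9.38% in d4 and d8 DZ+PGCLC, against 10.8% and 5.86%.

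Matrix RNA was abundant in the stem cells and low in the DAZL-positive cells. The summed level of the 64 genes was 4533 and 6401 RPKM in 4i ESC, 3443 and 5477 RPKM in N3+PGCLC, 3870 and 2965 RPKM in DM+PGCLC, 1260 and 1652 RPKM in d4 DZ+PGCLC, and 985.3 and 850.0 RPKM in d8 DZ+PGCLC. All 4 DZ+PGCLC libraries lay below the other 6. As a share of the RPKM of all listed genes this was 1.01% to 2.28% in the first 3 groups and 0.455% to 0.744% in the DZ+PGCLC groups. Most genes followed this course and a minority ran against it, as the map of levels shows.

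**Figure D1:**
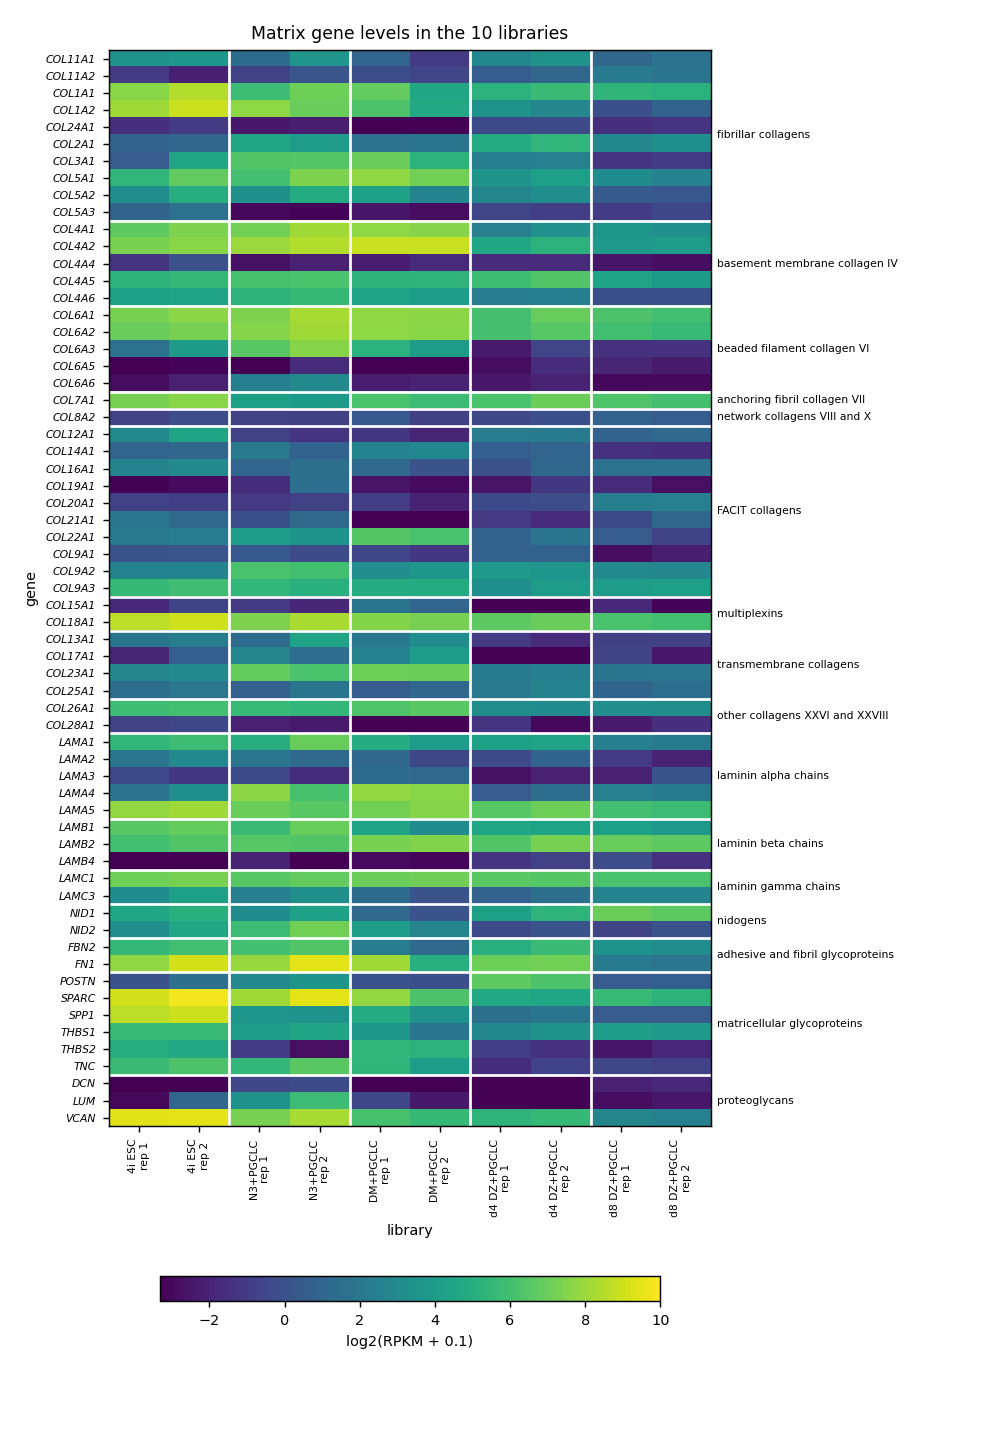
Levels, as log2(RPKM + 0.1) on a colour scale, of 63 of the 64 matrix genes (one line each, grouped by role) in the 10 libraries (columns, 2 per group). Most lines darken in the 4 DZ+PGCLC columns at the right, while NID1, COL2A1, COL11A2 and COL20A1 do not, and POSTN is brightest in the d4 DZ+PGCLC columns.

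The question asked first was how the matrix genes of each germ cell-like stage compare with those of the stem cells. In N3+PGCLC, 14 of the 64 genes were called higher than in 4i ESC and 9 lower, that is 21.9% and 14.1%, beside 13.8% and 12.3% of all listed genes. In DM+PGCLC, 10 were higher and 21 lower, 15.6% and 32.8%, beside 23% and 21.1% of listed genes. In d4 DZ+PGCLC, 5 were higher and 29 lower, 7.81% and 45.3%, beside 17.3% and 24.6%. In d8 DZ+PGCLC, 7 were higher and 39 lower, 10.9% and 60.9%, beside 28.5% and 27.4%. The share of matrix genes called lower was thus near the background in N3+PGCLC and over it in the other 3 groups, and the share called higher was under the background in all groups but N3+PGCLC. The median difference of the 64 genes was -0.05, -0.50, -1.45 and -1.68 on the log2 scale in the order of these comparisons, and that of all listed genes was 0 in N3+PGCLC and DM+PGCLC, -0.10 in d4 DZ+PGCLC and 0.01 in d8 DZ+PGCLC. The counts depend on single libraries: without 4i ESC replicate 1, 8 genes were called higher in N3+PGCLC and 6 in DM+PGCLC, and without N3+PGCLC replicate 2 or DM+PGCLC replicate 2 these counts were 9 and 6.

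Within each of the 2 series of stages, genes fell more often than they rose. From N3+PGCLC to DM+PGCLC, 7 matrix genes were called higher and 16 lower, 10.9% and 25%, beside 13.9% and 12.1% of all listed genes. From d4 to d8 DZ+PGCLC, 4 were higher and 15 lower, 6.25% and 23.4%, beside 15.4% and 8.3%. The median difference of the matrix genes was -0.60 on the log2 scale in the former comparison, where that of listed genes was 0, and -0.38 in the latter, where that of listed genes was 0.19. Without N3+PGCLC replicate 2, 3 genes were called higher in DM+PGCLC than in N3+PGCLC, and without d8 DZ+PGCLC replicate 2, 9 were called lower in d8 than in d4 DZ+PGCLC.

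**Figure D2:**
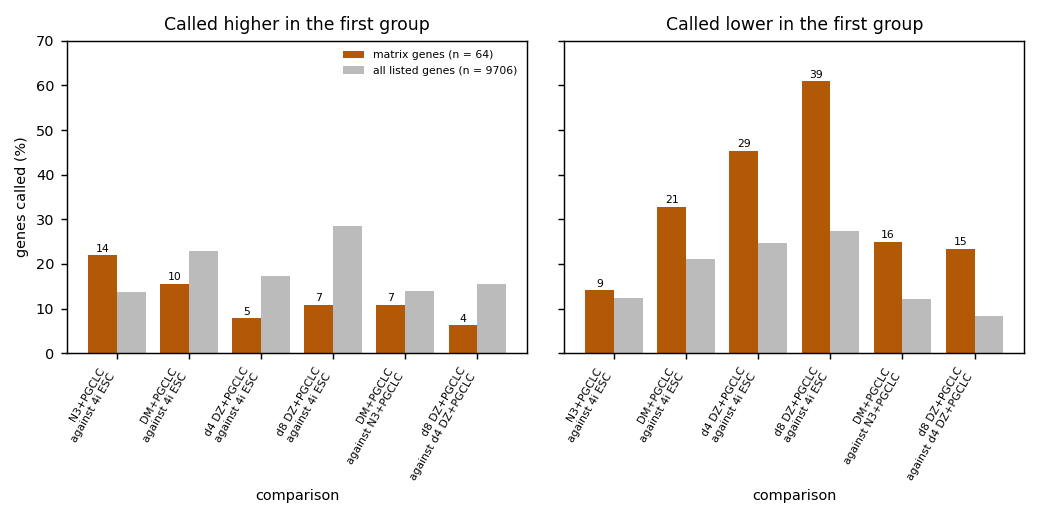
Share of genes (%) called higher (left) or lower (right) in the first-named group of each of 6 comparisons, for the 64 matrix genes (orange bars, with the number of genes) and for all 9706 listed genes (grey bars). The orange bar is above the grey bar for lower calls in every comparison, by the widest margin in d8 DZ+PGCLC, and below it for higher calls in every comparison except N3+PGCLC against 4i ESC.

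COL1A1 and COL1A2 encode the alpha 1 and alpha 2 chains that assemble 2 to 1 into type I collagen, the main collagen of bone, skin and tendon. COL1A1 had levels of 7.61 and 8.47 in 4i ESC, 5.87 and 7.08 in N3+PGCLC, 6.80 and 4.63 in DM+PGCLC, 5.21 and 5.74 in d4 DZ+PGCLC, and 5.40 and 5.20 in d8 DZ+PGCLC. COL1A2 had levels of 8.09 and 8.91, 7.74 and 6.98, 6.28 and 4.73, 3.46 and 2.86, and -0.06 and 0.90 in the same order. The chains started close to each other and parted: COL1A1 stayed at 4.63 or above in every library, and COL1A2 was lower in each group than in the one named before it, with no overlap. Against 4i ESC, COL1A2 fell by 8.08 ± 0.58 in d8 DZ+PGCLC (limma, adjusted p = 5.68e-05) and COL1A1 by 2.73 ± 0.70 (adjusted p = 0.0106). The level of COL1A1 minus that of COL1A2 was -0.49 and -0.45 in the 4i ESC libraries and 5.46 and 4.31 in the d8 DZ+PGCLC libraries. The calls of COL1A1 in d4 and d8 DZ+PGCLC are fragile: without 4i ESC replicate 2, or without a library of the DZ+PGCLC group compared, their adjusted p was 0.053 to 0.102.

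From d4 to d8 DZ+PGCLC, COL1A2 fell by 2.74 ± 0.58 (adjusted p = 0.0117), a call that was lost without d4 replicate 1 (adjusted p = 0.0684) or d8 replicate 1 (adjusted p = 0.101). From N3+PGCLC to DM+PGCLC it fell by 1.85 ± 0.58 (adjusted p = 0.0448), and this call was lost on leaving out any library except DM+PGCLC replicate 1, with an adjusted p of 0.0584 to 0.241. COL1A1 differed by -0.76 ± 0.70 (adjusted p = 0.455) between these stages. In DM+PGCLC, where replicate 2 was the lower library for both chains, COL1A1 fell by 2.32 ± 0.70 against 4i ESC (adjusted p = 0.0252). That call was lost without 4i ESC replicate 2, DM+PGCLC replicate 2 or either d8 DZ+PGCLC library (adjusted p = 0.0617 to 0.13).

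COL3A1 and COL5A2 lie side by side on chromosome 2 (GRCh38, GENCODE 44), COL3A1 at 188974373 to 189012746 on the plus strand and COL5A2 at 189031898 to 189225312 on the minus strand. COL3A1, the type III chain of elastic tissues and vessel walls, had levels of 0.52 and 4.54 in 4i ESC, 6.36 and 6.42 in N3+PGCLC, 6.96 and 5.25 in DM+PGCLC, 2.37 and 2.48 in d4 DZ+PGCLC, and -1.31 and -0.95 in d8 DZ+PGCLC. From d4 to d8 DZ+PGCLC it fell by 3.55, which was not called in the fit of all 10 libraries. That fall was called with only the 4 libraries compared (limma, adjusted p = 0.0224) and with a filter of 1 RPKM in 2 libraries (adjusted p = 0.0161). Under quantile normalization it was called too (-4.47, adjusted p = 0.0132). The 4i ESC libraries themselves differed by 4.02, a gap exceeded within this group only by that of LUM, 4.10. N3+PGCLC and DM+PGCLC were above both of them and d8 DZ+PGCLC below both. COL3A1 was called higher in N3+PGCLC (difference 3.86 ± 1.15, adjusted p = 0.0357) and in DM+PGCLC (3.57 ± 1.15, adjusted p = 0.0311) and lower in d8 DZ+PGCLC (-3.66 ± 1.15, adjusted p = 0.0239). Each of these calls was lost on leaving out some single library, with an adjusted p of up to 0.163. Without 4i ESC replicate 1 the first was 1.85 (adjusted p = 0.0884) and the second 1.56 (adjusted p = 0.0903), and without 4i ESC replicate 2 the third was -1.65 (adjusted p = 0.0655).

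COL5A2, a chain of type V collagen, which nucleates fibrils of type I, was also low in the day 8 cells. Its levels were 3.21 and 5.00 in 4i ESC, 3.39 and 4.86 in N3+PGCLC, 4.28 and 2.71 in DM+PGCLC, 2.77 and 3.20 in d4 DZ+PGCLC, and 0.43 and 0.30 in d8 DZ+PGCLC. The first 4 groups overlapped, and the 2 d8 DZ+PGCLC libraries lay below them all. From d4 to d8 DZ+PGCLC it fell by 2.62 ± 0.75 (adjusted p = 0.0337), and without any of these 4 libraries the adjusted p was 0.0958 to 0.163. COL5A3, another type V chain, took another course, with levels of 0.92 and 1.71 in 4i ESC, -3.03 and -3.17 in N3+PGCLC, -2.53 and -2.90 in DM+PGCLC, -0.52 and -0.87 in d4 DZ+PGCLC and -1.02 and -0.51 in d8 DZ+PGCLC. It was lowest in N3+PGCLC and DM+PGCLC, where it fell by 4.41 ± 0.37 (adjusted p = 0.000403) and 4.03 ± 0.37 (adjusted p = 0.000172) against 4i ESC.

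The fibrillar collagens of cartilage are types II and XI. COL2A1, the type II chain, had levels of 0.91 and 1.08 in 4i ESC, 4.67 and 4.01 in N3+PGCLC, 1.72 and 1.82 in DM+PGCLC, 4.87 and 5.47 in d4 DZ+PGCLC, and 2.90 and 3.33 in d8 DZ+PGCLC. No library of another group was as low as those of 4i ESC, and the highest were those of d4 DZ+PGCLC. COL2A1 rose by 3.35 ± 0.30 in N3+PGCLC (adjusted p = 0.000467), by 4.18 ± 0.30 in d4 DZ+PGCLC (adjusted p = 6.86e-05) and by 2.12 ± 0.30 in d8 DZ+PGCLC (adjusted p = 0.000689), and it fell by 2.57 ± 0.30 from N3+PGCLC to DM+PGCLC (adjusted p = 0.00106). COL11A2, an alpha chain of type XI collagen, which is co-assembled with type II, had levels of -1.08 and -2.15 in 4i ESC, -0.67 and 0.22 in N3+PGCLC, -0.13 and -0.55 in DM+PGCLC, 0.56 and 1.09 in d4 DZ+PGCLC, and 2.19 and 1.78 in d8 DZ+PGCLC. Its level in d8 DZ+PGCLC, 3.9 RPKM on average, was 3.60 ± 0.51 over 4i ESC (adjusted p = 0.000689). Of the 10 fibrillar collagens listed, 2 were called higher (COL2A1 and COL11A2) and 7 lower in d8 DZ+PGCLC, beside 28.5% and 27.4% of all listed genes.

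Collagen IV, the network of the basement membrane, is encoded by pairs of genes that lie head to head and start in opposite directions. COL4A1 and COL4A2 are the chains found in nearly all basement membranes. Their RefSeq start sites on chromosome 13 are 127 bases apart (COL4A1 at 110307157 on the minus strand, COL4A2 at 110307284 on the plus strand, GRCh38), and their gene models overlap on opposite strands. The library kit keeps the strand, and how strand entered the RPKM was not stated in the sources used. COL4A5 and COL4A6 start 380 bases apart on chromosome X (COL4A6 at 108439458 on the minus strand, COL4A5 at 108439838 on the plus strand). The DNA between the starts is shown because the 2 genes of a pair, which start beside each other, did not keep the same gap across the groups. It is the whole of the COL4A1 and COL4A2 interval, chr13:110307158-110307283, and the 300 bases before the COL4A5 start, chrX:108439538-108439837, both on the plus strand of GRCh38, with matches to CCAAT or GGGCGG on either strand (ATTGG and CCGCCC when read on the plus strand) in capitals.
COL4A1 and COL4A2: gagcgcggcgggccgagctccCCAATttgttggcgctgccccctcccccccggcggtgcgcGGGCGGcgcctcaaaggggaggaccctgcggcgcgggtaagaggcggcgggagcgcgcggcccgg
COL4A6 and COL4A5: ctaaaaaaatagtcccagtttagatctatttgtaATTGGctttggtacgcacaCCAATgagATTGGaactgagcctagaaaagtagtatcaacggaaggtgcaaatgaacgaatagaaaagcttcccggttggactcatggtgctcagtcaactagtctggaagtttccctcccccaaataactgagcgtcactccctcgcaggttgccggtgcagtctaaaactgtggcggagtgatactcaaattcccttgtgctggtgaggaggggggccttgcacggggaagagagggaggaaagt
The interval of COL4A1 and COL4A2 is 80.2% G and C and holds 1 CCAAT and 1 GGGCGG match. The 379 bases between the COL4A6 and COL4A5 starts are 48.5% G and C and hold 3 CCAAT matches and 0 GGGCGG matches. Neither interval matched TATAAA or ACANTGT, the core letters of a DM-domain motif. The RefSeq promoter sequences (GRCh38.p14) were taken as the 250 bases before each start. In this set 16 matrix genes had no entry, including COL1A1, COL1A2, COL2A1, COL3A1 and LAMA1. The other 48 of the 64 matrix genes had one. CCAAT matched in 15 of them (31.2%, against 33.0% of all 27305 promoters), GGGCGG in 28 (58.3%, against 42.3%), TATAAA in 7 (14.6%, against 11.1%) and ACANTGT in 1 (2.08%, against 4.56%). A match describes these letters and not a bound site. Lack of a match does not show that DMRT1 leaves a gene unbound. The study placed most DMRT1 sites at its germ cell genes in introns or between genes, and DMRT1 binding was not analysed here.

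COL4A1 had levels of 6.71 and 7.44 in 4i ESC, 7.17 and 8.09 in N3+PGCLC, 7.73 and 7.58 in DM+PGCLC, 2.47 and 3.40 in d4 DZ+PGCLC, and 3.71 and 3.39 in d8 DZ+PGCLC. COL4A2 had levels of 7.32 and 7.65, 8.00 and 8.45, 8.90 and 8.88, 4.64 and 5.23, and 3.90 and 4.01 in the same order. All 4 DZ+PGCLC libraries were below the other 6 in both genes. COL4A1 fell by 4.15 ± 0.41 in d4 DZ+PGCLC (adjusted p = 0.000221) and by 3.53 ± 0.41 in d8 DZ+PGCLC (adjusted p = 0.000315), and COL4A2 by 2.55 ± 0.24 (adjusted p = 0.000173) and 3.54 ± 0.24 (adjusted p = 4.46e-05). In DM+PGCLC, COL4A2 rose by 1.41 ± 0.24 (adjusted p = 0.00213) and COL4A1 differed by 0.58 ± 0.41 (adjusted p = 0.273). The level of COL4A1 minus that of COL4A2 was -2.17 to -0.19 over the 10 libraries, with the widest gaps in d4 DZ+PGCLC.

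The X-linked chains COL4A5 and COL4A6, which take part in specialised basement membranes and form a trimer with each other, parted in the DZ+PGCLC groups. COL4A5 had levels of 5.30 and 5.53 in 4i ESC, 6.11 and 6.23 in N3+PGCLC, 5.29 and 5.37 in DM+PGCLC, 5.84 and 6.39 in d4 DZ+PGCLC, and 4.35 and 3.94 in d8 DZ+PGCLC. COL4A6 had levels of 4.22 and 4.44, 5.29 and 5.62, 4.34 and 4.16, 2.25 and 2.44, and -0.06 and -0.08. The gap between them was 0.61 to 1.21 in the 6 libraries of the first 3 groups and 3.59 to 4.42 in the 4 DZ+PGCLC libraries. In d4 DZ+PGCLC, COL4A5 overlapped the levels of N3+PGCLC, while COL4A6 fell by 1.99 ± 0.18 against 4i ESC (adjusted p = 0.000164). In d8 DZ+PGCLC, COL4A6 fell by 4.41 ± 0.18 (adjusted p = 1.21e-05) and COL4A5 fell by 1.27 ± 0.21 (adjusted p = 0.00153). All 5 listed collagen IV chains were called lower in d8 DZ+PGCLC, COL4A4 included, beside 27.4% of all listed genes.

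**Figure D3:**
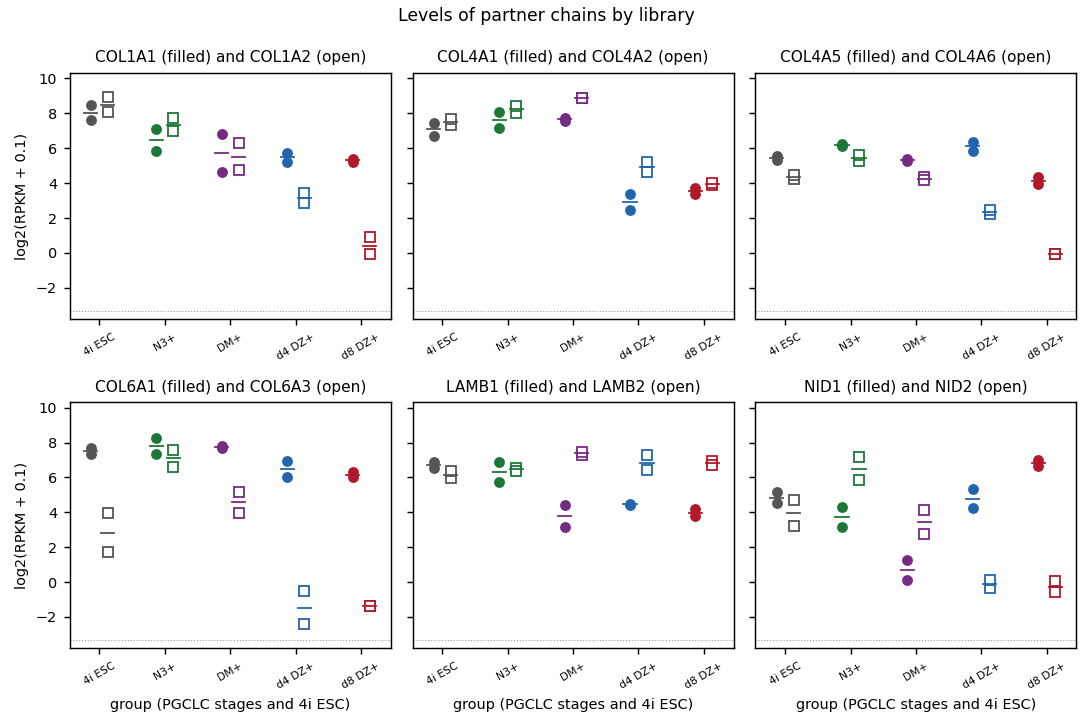
Levels, as log2(RPKM + 0.1), of 6 sets of partner genes in the 5 groups, the first gene as filled circles and the second as open squares, 1 symbol per library with a short line at the mean of 2 libraries and a dotted line at the level of a gene listed at 0. COL4A1 and COL4A2 are farthest apart in d4 DZ+PGCLC, and COL1A1 and COL1A2, COL4A5 and COL4A6, and NID1 and NID2 part in d4 and d8 DZ+PGCLC.

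Collagen VI is built from an alpha 1, an alpha 2 and 1 of several larger chains. COL6A1 and COL6A2 are neighbours on chromosome 21, and their levels were within 0.41 of each other in all 10 libraries. COL6A1 ranged from 6.01 to 8.28 and COL6A2 from 5.69 to 8.08, and the lowest group of both was d8 DZ+PGCLC, where they fell by 1.34 ± 0.37 (adjusted p = 0.0141) and 1.29 ± 0.24 (adjusted p = 0.00221) against 4i ESC. The larger chain COL6A3 moved over a far wider range, with levels of 1.71 and 3.95 in 4i ESC, 6.60 and 7.58 in N3+PGCLC, 5.16 and 3.99 in DM+PGCLC, -2.38 and -0.54 in d4 DZ+PGCLC and -1.36 and -1.37 in d8 DZ+PGCLC. It rose by 4.26 ± 0.87 in N3+PGCLC (adjusted p = 0.00928) and fell by 4.29 ± 0.87 in d4 DZ+PGCLC (adjusted p = 0.00493) and 4.19 ± 0.87 in d8 DZ+PGCLC (adjusted p = 0.00403), against 4i ESC. The rise in N3+PGCLC was 3.14 without 4i ESC replicate 1 (adjusted p = 0.0516). COL6A6, another of the larger chains, was high in N3+PGCLC alone among these groups, with levels of 2.41 and 3.04 there and of -1.98 or less in the other 8 libraries. Its difference was 5.21 ± 0.36 against 4i ESC (adjusted p = 0.000271) and -4.85 ± 0.36 from N3+PGCLC to DM+PGCLC (adjusted p = 0.000227).

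COL7A1, the anchoring fibril collagen that ties epidermal basement membrane to the dermis, had levels of 7.26 and 7.65 in 4i ESC, 4.25 and 3.93 in N3+PGCLC, 6.22 and 5.80 in DM+PGCLC, 6.21 and 6.99 in d4 DZ+PGCLC, and 6.36 and 6.08 in d8 DZ+PGCLC. The 2 N3+PGCLC libraries lay below the other 8. COL7A1 fell by 3.36 ± 0.29 in N3+PGCLC (adjusted p = 0.000422) and rose by 1.92 ± 0.29 from there to DM+PGCLC (adjusted p = 0.00278). In d8 DZ+PGCLC its RNA stood at 81.86 and 67.34 RPKM, more than that of any other collagen there.

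The FACIT collagens have interrupted helices and sit on the surface of fibrils. Of the 10 listed, 3 were higher and 1 lower in N3+PGCLC than in 4i ESC, 2 and 3 in DM+PGCLC, 1 and 4 in d4 DZ+PGCLC, and 1 and 5 in d8 DZ+PGCLC. These are 30% and 10%, 20% and 30%, 10% and 40%, and 10% and 50%, beside 13.8% and 12.3%, 23% and 21.1%, 17.3% and 24.6%, and 28.5% and 27.4% of all listed genes. COL12A1, found in tendon and ligament, had levels of 3.03 and 4.48 in 4i ESC, -0.73 and -1.32 in N3+PGCLC, -1.18 and -1.93 in DM+PGCLC, 2.32 and 2.20 in d4 DZ+PGCLC and 0.91 and 1.23 in d8 DZ+PGCLC. All 4 libraries of N3+PGCLC and DM+PGCLC were below the other 6, with differences from 4i ESC of -4.78 ± 0.53 (adjusted p = 0.00106) and -5.31 ± 0.53 (adjusted p = 0.000242). COL21A1 was listed at 0 in both DM+PGCLC libraries and had levels of 1.91 and 1.24 in 4i ESC and -0.05 and 1.30 in N3+PGCLC. It was called lower in DM+PGCLC against both groups, and no fold is given against 0. COL22A1, described at tissue junctions such as those of muscle and tendon, went the other way, with levels of 2.05 and 2.26 in 4i ESC, 4.06 and 3.58 in N3+PGCLC, 6.50 and 6.17 in DM+PGCLC, 0.90 and 1.81 in d4 DZ+PGCLC and 0.54 and -0.61 in d8 DZ+PGCLC. The groups did not overlap. COL22A1 rose by 4.17 ± 0.44 in DM+PGCLC against 4i ESC (adjusted p = 0.000301) and by 2.51 ± 0.44 against N3+PGCLC (adjusted p = 0.00503).

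Type IX collagen coats cartilage fibrils and has 3 chains. COL9A2 had levels of 2.62 and 2.70 in 4i ESC, 6.15 and 5.97 in N3+PGCLC, 3.19 and 3.74 in DM+PGCLC, 3.86 and 3.70 in d4 DZ+PGCLC and 2.93 and 2.83 in d8 DZ+PGCLC. It was highest in N3+PGCLC, 3.40 ± 0.20 over 4i ESC (adjusted p = 0.000179), and it was 1.12 ± 0.20 over 4i ESC in d4 DZ+PGCLC (adjusted p = 0.00262). Its partner COL9A3 was not called in N3+PGCLC (-0.43 ± 0.24, adjusted p = 0.205) and fell in d4 and d8 DZ+PGCLC. COL9A1, the chain with the lowest levels, was at levels of 0.87 and 0.79 in d4 DZ+PGCLC and of -2.81 and -2.20 in d8 DZ+PGCLC, a difference of -3.33 ± 0.40 (adjusted p = 0.00162). COL20A1 rose late, from levels between -2.07 and -0.15 in the first 8 libraries to 2.35 and 2.48 in d8 DZ+PGCLC, a difference of 2.66 ± 0.43 from d4 DZ+PGCLC (adjusted p = 0.00431) and of 3.18 ± 0.43 from 4i ESC (adjusted p = 0.000576).

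Transmembrane collagens span the plasma membrane. Of the 4 listed, 1 was called higher in N3+PGCLC and 2 in DM+PGCLC, with 0 lower, and 0 were higher and 1 and 2 lower in d4 and d8 DZ+PGCLC. Of all listed genes, 13.8% were higher in N3+PGCLC and 23% in DM+PGCLC, and 24.6% and 27.4% were lower in d4 and d8 DZ+PGCLC. COL23A1 had levels of 2.78 and 3.02 in 4i ESC, 6.83 and 6.22 in N3+PGCLC, 7.06 and 7.03 in DM+PGCLC, 2.19 and 2.44 in d4 DZ+PGCLC, and 1.78 and 1.90 in d8 DZ+PGCLC. The 4 libraries of N3+PGCLC and DM+PGCLC were at 6.22 or above and all others at 3.02 or below. COL23A1 rose by 3.62 ± 0.21 in N3+PGCLC (adjusted p = 0.000179) and by 4.15 ± 0.21 in DM+PGCLC (adjusted p = 3.54e-05). COL17A1, a component of hemidesmosomes, had levels of -1.93 and 0.66 in 4i ESC, 2.75 and 1.46 in N3+PGCLC and 2.65 and 4.11 in DM+PGCLC, and it was listed at 0 in both d4 DZ+PGCLC libraries and at -0.61 and -2.41 in d8 DZ+PGCLC. It was 4.02 ± 1.00 over 4i ESC in DM+PGCLC (adjusted p = 0.0116), a call lost without 4i ESC replicate 1 (adjusted p = 0.0683) or DM+PGCLC replicate 2 (adjusted p = 0.0768).

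Of the 2 multiplexins, which carry anti-angiogenic fragments at their ends, COL18A1 was the abundant one, with levels of 8.66 and 9.04 in 4i ESC and of 6.15 and 5.97 in d8 DZ+PGCLC. COL15A1 was low, with levels of -1.85 and -0.57 in 4i ESC, -1.04 and -1.89 in N3+PGCLC, 1.81 and 1.01 in DM+PGCLC and -1.85 and -3.18 in d8 DZ+PGCLC, and it was listed at 0 in both d4 DZ+PGCLC libraries. DM+PGCLC was above all others, by 2.62 ± 0.61 over 4i ESC (adjusted p = 0.00852) and by 2.87 ± 0.61 over N3+PGCLC (adjusted p = 0.0102). These calls were lost without 4i ESC replicate 1 (adjusted p = 0.0571) or DM+PGCLC replicate 1 (adjusted p = 0.0501) in the former, and without N3+PGCLC replicate 2 (adjusted p = 0.0629) or DM+PGCLC replicate 1 (adjusted p = 0.055) in the latter. COL8A2, a network collagen of the cornea, reached levels of 0.89 and 0.57 in d8 DZ+PGCLC against -0.73 and -0.20 in 4i ESC, at the edge of the threshold (1.20 ± 0.46, adjusted p = 0.0499). It was not called on leaving out any library of those groups, N3+PGCLC or d4 DZ+PGCLC (adjusted p = 0.0634 to 0.21).

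Laminin is a trimer, and its alpha chain carries the main sites for receptors. The stem cells held abundant RNA of LAMA5, LAMA1, LAMB1, LAMB2 and LAMC1. LAMA5 had levels of 7.86 and 8.10 in 4i ESC, 7.001 and 6.59 in N3+PGCLC, 7.15 and 7.55 in DM+PGCLC, 6.54 and 7.04 in d4 DZ+PGCLC and 5.99 and 5.81 in d8 DZ+PGCLC. LAMA4, the chain typical of vessel walls and muscle, had levels of 1.74 and 3.33 in 4i ESC, 7.68 and 6.12 in N3+PGCLC, 7.85 and 7.64 in DM+PGCLC, 0.49 and 1.49 in d4 DZ+PGCLC and 2.46 and 2.21 in d8 DZ+PGCLC. The 2 alpha chains of N3+PGCLC and DM+PGCLC stood at like levels, LAMA4 minus LAMA5 being -0.47 to 0.70, and in the other 6 libraries it was -6.12 to -3.54.

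LAMA4 rose by 4.37 ± 0.65 in N3+PGCLC (adjusted p = 0.00276) and by 5.21 ± 0.65 in DM+PGCLC (adjusted p = 0.000557), and against 4i ESC it was not called in d4 DZ+PGCLC (-1.54 ± 0.65, adjusted p = 0.0801) or d8 DZ+PGCLC (-0.20 ± 0.65, adjusted p = 0.806). LAMA5 fell by 1.19 ± 0.24 in N3+PGCLC (adjusted p = 0.00906), 1.19 ± 0.24 in d4 DZ+PGCLC (adjusted p = 0.00489) and 2.08 ± 0.24 in d8 DZ+PGCLC (adjusted p = 0.000309). The fall in N3+PGCLC was not called without 4i ESC replicate 2 (-1.07, adjusted p = 0.0542) or N3+PGCLC replicate 2 (-0.98), nor that in d4 DZ+PGCLC without its replicate 1 (-0.94). Under quantile normalization the difference of LAMA5 in d4 DZ+PGCLC was -0.33 (adjusted p = 0.262). LAMA1, the alpha chain of the first embryonic basement membranes, had levels of 5.52 and 5.88 in 4i ESC, 4.95 and 6.93 in N3+PGCLC, 4.91 and 3.97 in DM+PGCLC, 4.24 and 4.35 in d4 DZ+PGCLC and 2.42 and 2.10 in d8 DZ+PGCLC. It was lowest in d8 DZ+PGCLC, where it fell by 3.44 ± 0.59 against 4i ESC (adjusted p = 0.00165). Its change from d4 to d8 DZ+PGCLC, -2.03 ± 0.59 (adjusted p = 0.0353), was lost without any library of these groups or of 4i ESC (adjusted p = 0.0565 to 0.185).

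The beta chains changed places. LAMB1 had levels of 6.57 and 6.87 in 4i ESC, 5.75 and 6.88 in N3+PGCLC, 4.44 and 3.16 in DM+PGCLC, 4.49 and 4.42 in d4 DZ+PGCLC and 4.18 and 3.80 in d8 DZ+PGCLC. LAMB2 had levels of 5.95 and 6.37, 6.53 and 6.40, 7.30 and 7.48, 6.40 and 7.29, and 6.92 and 6.69 in the same order. LAMB1 was thus low in all 6 libraries of the last 3 groups and high in the first 4, while LAMB2 was highest in DM+PGCLC and at 5.95 or above throughout. LAMB1 fell by 2.92 ± 0.47 in DM+PGCLC (adjusted p = 0.00176), 2.26 ± 0.47 in d4 DZ+PGCLC (adjusted p = 0.00552) and 2.73 ± 0.47 in d8 DZ+PGCLC (adjusted p = 0.00169) against 4i ESC, and LAMB2 rose by 1.23 ± 0.29 in DM+PGCLC (adjusted p = 0.00865). The level of LAMB1 minus LAMB2 was 0.50 and 0.61 in 4i ESC and -4.32 to -1.91 in the last 3 groups.

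The gamma chain LAMC1, shared by most laminins, moved least, with levels between 6.15 and 7.29 in all 10 libraries. Its only call was in d8 DZ+PGCLC (-1.01 ± 0.14, adjusted p = 0.000698), just past the 2-fold limit, and it was not past it without 4i ESC replicate 2 (-0.91) or under quantile normalization (-0.41, adjusted p = 0.0591). LAMA3, an alpha chain of epithelial laminin, had levels of 1.40 and 1.25 in DM+PGCLC and at most 0.10 in every other library. It rose by 2.32 ± 0.75 from N3+PGCLC to DM+PGCLC (adjusted p = 0.05, under the threshold before rounding), a call lost without N3+PGCLC replicate 2 (adjusted p = 0.227), DM+PGCLC replicate 2 (adjusted p = 0.15) or any other library except those of d8 DZ+PGCLC.

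Nidogens link the laminin and collagen IV sheets, and the 2 genes parted in the DZ+PGCLC groups. NID1 had levels of 4.52 and 5.15 in 4i ESC, 3.17 and 4.31 in N3+PGCLC, 1.28 and 0.09 in DM+PGCLC, 4.24 and 5.33 in d4 DZ+PGCLC, and 6.98 and 6.63 in d8 DZ+PGCLC. NID2 had levels of 3.22 and 4.69, 5.84 and 7.19, 4.15 and 2.75, -0.35 and 0.13, and -0.59 and 0.08 in the same order. NID2 was highest in N3+PGCLC and near 1 RPKM in all DZ+PGCLC libraries, where NID1 was 4.59 to 7.57 above it. The order in N3+PGCLC and DM+PGCLC was the reverse, with NID1 minus NID2 at -2.87 to -2.66.

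NID1 fell by 4.15 ± 0.56 in DM+PGCLC (adjusted p = 0.000785) and rose by 1.98 ± 0.56 in d8 DZ+PGCLC (adjusted p = 0.0156) against 4i ESC, and by 2.02 ± 0.56 from d4 to d8 DZ+PGCLC (adjusted p = 0.0296). The rise over 4i ESC was lost without 4i ESC replicate 1 (adjusted p = 0.0895) or d8 replicate 1 or 2 (0.103 and 0.0641), and that over d4 DZ+PGCLC without d4 replicate 1 (0.153) or d8 replicate 1 or 2 (0.17 and 0.118). NID2 rose by 2.56 ± 0.69 in N3+PGCLC (adjusted p = 0.0252) and fell by 4.07 ± 0.69 in d4 DZ+PGCLC (adjusted p = 0.00214) and 4.21 ± 0.69 in d8 DZ+PGCLC (adjusted p = 0.00131). Between N3+PGCLC and DM+PGCLC both nidogens fell. NID1 fell by 3.05 ± 0.56 (adjusted p = 0.00574) and NID2 fell by 3.06 ± 0.69 (adjusted p = 0.0128), and the call of NID2 was lost without N3+PGCLC replicate 2 (adjusted p = 0.0789) or DM+PGCLC replicate 2 (adjusted p = 0.0856). In d8 DZ+PGCLC, NID1 had the highest mean of all matrix genes, 112.8 RPKM, followed by LAMB2 at 112.2 RPKM and COL7A1 at 74.6 RPKM.

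Fibronectin, the product of FN1, is the adhesive glycoprotein bound by many integrins. FN1 had levels of 7.79 and 9.14 in 4i ESC, 7.93 and 9.47 in N3+PGCLC, 8.12 and 5.01 in DM+PGCLC, 7.08 and 7.18 in d4 DZ+PGCLC, and 2.16 and 1.91 in d8 DZ+PGCLC. The 2 DM+PGCLC libraries differed by 3.11, the widest gap within that group, and all libraries but those of d8 DZ+PGCLC were at 5.01 or above. Replicates differed by 0.10 in d4 and 0.24 in d8 DZ+PGCLC, while the SE of FN1 also holds the wider gaps of the other groups. FN1 fell by 6.43 ± 0.97 in d8 DZ+PGCLC against 4i ESC (adjusted p = 0.000932) and by 5.10 ± 0.97 from d4 to d8 DZ+PGCLC (adjusted p = 0.0077). The latter call was lost without d8 replicate 1 (adjusted p = 0.0589) or d8 replicate 2 (adjusted p = 0.0688), although FN1 fell by 4.98 or more in both fits. FN1 was not called in d4 DZ+PGCLC (-1.33 ± 0.97, adjusted p = 0.287) or DM+PGCLC (-1.90 ± 0.97, adjusted p = 0.136), and without DM+PGCLC replicate 1 the latter was -3.45 (adjusted p = 0.0108).

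FBN2, the microfibril protein fibrillin-2 of embryonic tissue, had levels of 5.53 and 5.98 in 4i ESC, 6.03 and 6.41 in N3+PGCLC, 2.27 and 1.30 in DM+PGCLC, 5.07 and 5.77 in d4 DZ+PGCLC and 3.49 and 3.25 in d8 DZ+PGCLC. It was low in DM+PGCLC and d8 DZ+PGCLC and high in the groups from which these were compared, with differences of -4.43 ± 0.37 from N3+PGCLC to DM+PGCLC (adjusted p = 0.000318) and of -2.05 ± 0.37 from d4 to d8 DZ+PGCLC (adjusted p = 0.00615).

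Of the 6 matricellular genes, 5 were called lower in d4 DZ+PGCLC and 5 in d8 DZ+PGCLC, beside 24.6% and 27.4% of all listed genes. The fall of SPP1 in d8 DZ+PGCLC was the largest of any matrix gene against 4i ESC in any group. SPP1 encodes osteopontin, a secreted phosphoprotein that binds integrins and CD44. Its levels were 8.66 and 8.98 in 4i ESC, 3.68 and 3.51 in N3+PGCLC, 4.90 and 3.50 in DM+PGCLC, 1.61 and 1.88 in d4 DZ+PGCLC, and 0.49 and 0.52 in d8 DZ+PGCLC. All 8 germ cell-like libraries were at 4.90 or below, and those of d8 DZ+PGCLC were the lowest. SPP1 fell by 5.23 ± 0.40 (adjusted p = 0.000335), 4.62 ± 0.40 (adjusted p = 0.000144) and 7.08 ± 0.40 (adjusted p = 3.22e-05) in N3+PGCLC, DM+PGCLC and d4 DZ+PGCLC, and it fell by 8.32 ± 0.40 in d8 DZ+PGCLC (adjusted p = 1.48e-05). Its further change from d4 to d8, -1.24 ± 0.40 (adjusted p = 0.0496), was lost on leaving out any library but those of DM+PGCLC (adjusted p = 0.0687 to 0.195).

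**Figure D4:**
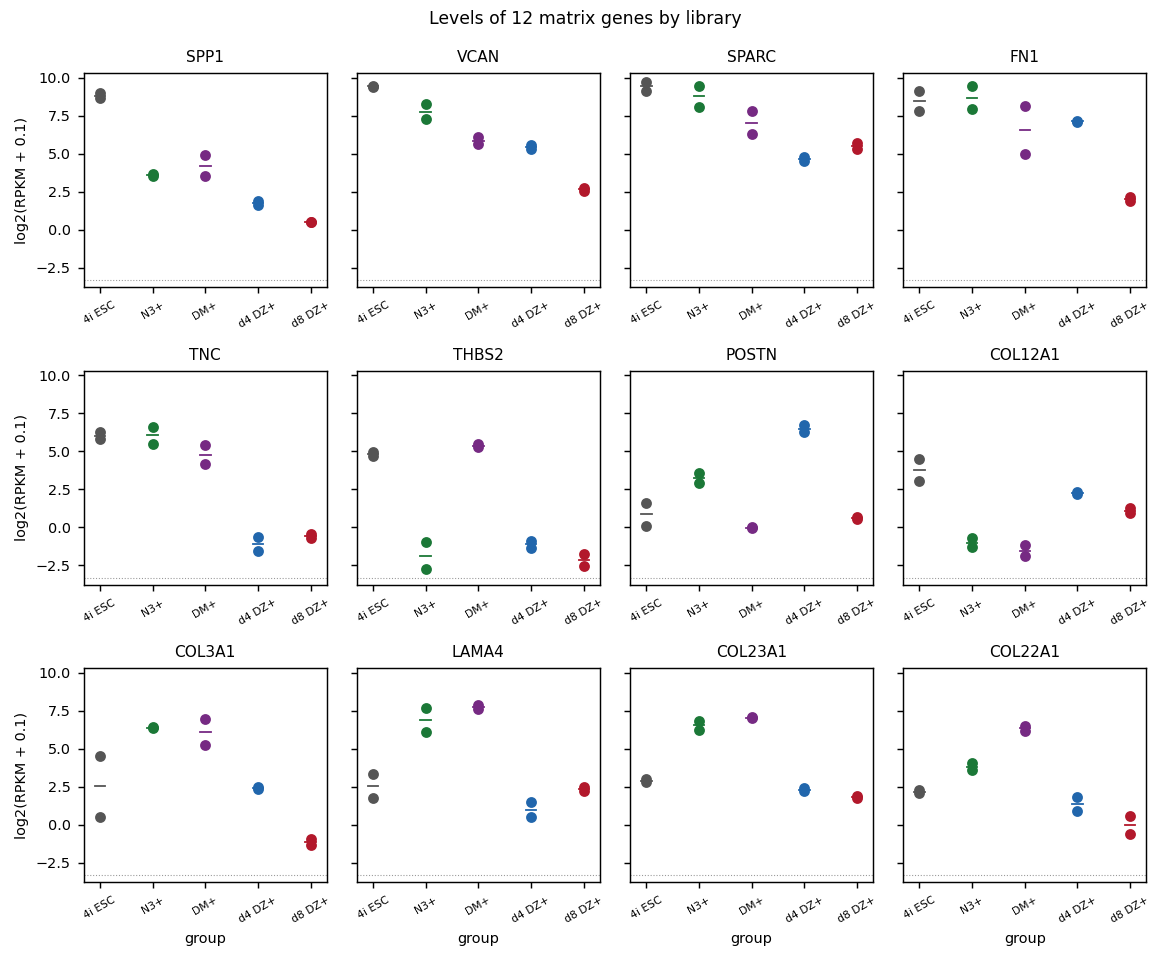
Levels, as log2(RPKM + 0.1), of 12 matrix genes in the 5 groups, 1 point per library with a short line at the mean of 2 libraries and a dotted line at the level of a gene listed at 0. SPP1 and VCAN are highest in 4i ESC, THBS2 is low in N3+PGCLC and in the DZ+PGCLC groups, POSTN peaks in d4 DZ+PGCLC, and LAMA4, COL23A1 and COL22A1 are highest in N3+PGCLC or DM+PGCLC.

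THBS2, thrombospondin-2, which restrains vessel growth, was on in 4i ESC and DM+PGCLC and nearly off elsewhere. Its levels were 4.95 and 4.71 in 4i ESC, -0.98 and -2.75 in N3+PGCLC, 5.50 and 5.25 in DM+PGCLC, -0.89 and -1.35 in d4 DZ+PGCLC, and -2.57 and -1.78 in d8 DZ+PGCLC. The 2 ranges, 4.71 to 5.50 and -2.75 to -0.89, did not touch. THBS2 fell by 6.70 ± 0.59 from 4i ESC to N3+PGCLC (adjusted p = 0.000451) and was 7.24 ± 0.59 higher in DM+PGCLC than in N3+PGCLC (adjusted p = 0.000288), the largest difference of any matrix gene between those stages. Against 4i ESC it was not called in DM+PGCLC (0.54 ± 0.59, adjusted p = 0.475) and fell by 5.95 ± 0.59 in d4 DZ+PGCLC (adjusted p = 0.000218) and fell by 7.003 ± 0.59 in d8 DZ+PGCLC (adjusted p = 9.22e-05). Its relative THBS1 did not share this pattern, with levels of 5.69 and 5.71 in 4i ESC and of 1.88 to 4.47 in the other 8 libraries.

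TNC, tenascin-C, a glycoprotein of embryonic and healing tissue, had levels of 5.78 and 6.28 in 4i ESC, 5.50 and 6.57 in N3+PGCLC, 5.40 and 4.15 in DM+PGCLC, -1.56 and -0.62 in d4 DZ+PGCLC, and -0.47 and -0.73 in d8 DZ+PGCLC. The 4 DZ+PGCLC libraries were at -0.47 or below and the other 6 at 4.15 or above. TNC fell by 7.12 ± 0.53 in d4 DZ+PGCLC (adjusted p = 7.85e-05) and 6.63 ± 0.53 in d8 DZ+PGCLC (adjusted p = 7.66e-05), and differed by 0.01 ± 0.53 in N3+PGCLC (adjusted p = 1). SPARC, or osteonectin, a collagen-binding protein, had levels of 9.11 and 9.75 in 4i ESC, 8.10 and 9.46 in N3+PGCLC, 7.83 and 6.28 in DM+PGCLC, 4.79 and 4.52 in d4 DZ+PGCLC and 5.72 and 5.31 in d8 DZ+PGCLC. It was the most abundant matricellular gene of d8 DZ+PGCLC, although it fell by 3.92 ± 0.58 against 4i ESC (adjusted p = 0.000875). In DM+PGCLC the difference of SPARC, -2.37 ± 0.58 (adjusted p = 0.0108), was lost without 4i ESC replicate 2 (adjusted p = 0.0648) or DM+PGCLC replicate 2 (adjusted p = 0.066).

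POSTN, periostin, which links fibronectin, tenascin and type I collagen, peaked in 1 group. Its levels were 0.08 and 1.61 in 4i ESC, 2.93 and 3.58 in N3+PGCLC, 0.03 and -0.08 in DM+PGCLC, 6.69 and 6.27 in d4 DZ+PGCLC, and 0.52 and 0.65 in d8 DZ+PGCLC. The d4 DZ+PGCLC libraries stood above all others, those of N3+PGCLC came next, and the other 6 were at 1.61 or below. POSTN rose by 5.63 ± 0.49 in d4 DZ+PGCLC (adjusted p = 0.000126) and 2.41 ± 0.49 in N3+PGCLC (adjusted p = 0.00886) against 4i ESC. It fell by 5.90 ± 0.49 from d4 to d8 DZ+PGCLC (adjusted p = 0.000522), the largest fall between those days among matrix genes, and by 3.28 ± 0.49 from N3+PGCLC to DM+PGCLC (adjusted p = 0.00255).

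Among the proteoglycans, VCAN encodes versican, a large chondroitin sulphate proteoglycan that binds hyaluronan. Its levels were 9.42 and 9.44 in 4i ESC, 7.28 and 8.27 in N3+PGCLC, 6.11 and 5.61 in DM+PGCLC, 5.34 and 5.59 in d4 DZ+PGCLC, and 2.77 and 2.53 in d8 DZ+PGCLC. With SPARC it was the most abundant matrix gene of 4i ESC, at 690.5 RPKM on average, and it fell in every germ cell-like group, by 1.66 ± 0.32 in N3+PGCLC (adjusted p = 0.00734), 3.57 ± 0.32 in DM+PGCLC (adjusted p = 0.000159), 3.97 ± 0.32 in d4 (adjusted p = 9.98e-05) and 6.78 ± 0.32 in d8 DZ+PGCLC (adjusted p = 1.41e-05). From d4 to d8 DZ+PGCLC it fell by 2.81 ± 0.32 (adjusted p = 0.00143).

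LUM and DCN encode lumican and decorin, small leucine-rich proteoglycans that bind collagen fibrils, and are neighbours on chromosome 12 (LUM at 91102629 to 91111494, DCN at 91140484 to 91183217, both on the minus strand). LUM had levels of -3.02 and 1.08 in 4i ESC, 3.52 and 5.82 in N3+PGCLC, -0.48 and -2.43 in DM+PGCLC, and -2.83 and -2.44 in d8 DZ+PGCLC, and was listed at 0 in both d4 DZ+PGCLC libraries. DCN was at levels of -0.50 and -0.24 in N3+PGCLC and of -2.11 and -1.84 in d8 DZ+PGCLC, and was listed at 0 in the other 6 libraries. Both genes were highest in N3+PGCLC. LUM was 5.64 ± 1.35 over 4i ESC there (adjusted p = 0.0165), and it fell by 6.13 ± 1.35 from N3+PGCLC to DM+PGCLC (adjusted p = 0.0119). These calls were lost without 4i ESC replicate 1 (adjusted p = 0.0693) or N3+PGCLC replicate 2 (adjusted p = 0.0818) in the former, and without N3+PGCLC replicate 2 (adjusted p = 0.0726) or DM+PGCLC replicate 2 (adjusted p = 0.0834) in the latter.

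The other genes of the matrix pathway were counted from 3 lists. The list of collagen synthesis and crosslinking has 28 genes, of which 22 were in the tables. Against 4i ESC, 2 were higher and 1 lower in N3+PGCLC, 2 and 7 in DM+PGCLC, 0 and 12 in d4 DZ+PGCLC and 2 and 14 in d8 DZ+PGCLC. As shares of the 22 these were 9.09% and 4.55% in N3+PGCLC, beside 13.8% and 12.3% of all listed genes, 9.09% and 31.8% in DM+PGCLC, beside 23% and 21.1%, 0% and 54.5% in d4 DZ+PGCLC, beside 17.3% and 24.6%, and 9.09% and 63.6% in d8 DZ+PGCLC, beside 28.5% and 27.4%. From N3+PGCLC to DM+PGCLC, 4 rose and 1 fell (18.2% and 4.55%, beside 13.9% and 12.1% of all listed genes), and from d4 to d8 DZ+PGCLC, 3 rose and 4 fell (13.6% and 18.2%, beside 15.4% and 8.3%). LOXL2, a lysyl oxidase that crosslinks collagen, had a mean level of 6.57 in 4i ESC and of 2.47 in d8 DZ+PGCLC (difference -4.09 ± 0.25, adjusted p = 2.99e-05). P3H2, a prolyl hydroxylase that acts on collagen IV, fell from a mean level of 5.25 to -0.02 in DM+PGCLC (difference -5.27 ± 0.60, adjusted p = 0.000395) and to -0.59 in d4 DZ+PGCLC (-5.83 ± 0.60, adjusted p = 0.00025). PLOD1, a lysyl hydroxylase, rose to a mean level of 8.94 in DM+PGCLC from 6.01 (difference 2.93 ± 0.22, adjusted p = 9.17e-05), in the group in which COL4A2 was also highest.

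Of 71 other matrix glycoproteins and proteoglycans, 49 were in the tables. Against 4i ESC, 13 of them were higher and 3 lower in N3+PGCLC, 15 and 12 in DM+PGCLC, 6 and 20 in d4 DZ+PGCLC and 13 and 21 in d8 DZ+PGCLC. As shares these were 26.5% and 6.12%, 30.6% and 24.5%, 12.2% and 40.8%, and 26.5% and 42.9%, beside 13.8% and 12.3%, 23% and 21.1%, 17.3% and 24.6%, and 28.5% and 27.4% of all listed genes. From N3+PGCLC to DM+PGCLC, 12 rose and 17 fell (24.5% and 34.7%, beside 13.9% and 12.1% of all listed genes). From d4 to d8 DZ+PGCLC, 8 rose and 8 fell (16.3% each, beside 15.4% and 8.3%). AGRN, agrin, which binds laminin and dystroglycan, fell from a mean level of 7.51 in 4i ESC to 5.70 in N3+PGCLC (-1.82 ± 0.45, adjusted p = 0.0196) and 3.92 in DM+PGCLC (-3.59 ± 0.45, adjusted p = 0.000604). IGFBP7 fell by 3.13 ± 0.59 in N3+PGCLC (adjusted p = 0.00705) and fell by 6.09 ± 0.59 in d8 DZ+PGCLC (adjusted p = 0.000154). TNXB, the largest tenascin, rose as TNC fell, from a mean level of -1.42 in 4i ESC to 0.51 in d4 (1.93 ± 0.50, adjusted p = 0.0137) and 2.69 in d8 DZ+PGCLC (4.10 ± 0.50, adjusted p = 0.000363). SPOCK2, a testican, rose by 4.84 ± 0.34 in DM+PGCLC (adjusted p = 6.47e-05), and MGP, an inhibitor of calcification, was listed at 0 in 4i ESC and had a mean level of 2.87 in DM+PGCLC.

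Receptors for collagen and laminin numbered 15 in the tables, of a list of 18. Against 4i ESC, 1 was higher and 4 lower in N3+PGCLC, 3 and 4 in DM+PGCLC, 0 and 7 in d4 DZ+PGCLC and 1 and 7 in d8 DZ+PGCLC. The shares were 6.67% and 26.7% in N3+PGCLC (13.8% and 12.3% of all listed genes), 20% and 26.7% in DM+PGCLC, near the 23% and 21.1% of all listed genes, 0% and 46.7% in d4 DZ+PGCLC (17.3% and 24.6%) and 6.67% and 46.7% in d8 DZ+PGCLC (28.5% and 27.4%). From N3+PGCLC to DM+PGCLC, 4 rose and 3 fell (26.7% and 20%, beside 13.9% and 12.1% of all listed genes). From d4 to d8 DZ+PGCLC, 3 rose and 1 fell (20% and 6.67%, near the 15.4% and 8.3% of all listed genes). CD44, a receptor of hyaluronan and of osteopontin, had a mean level of 7.26 in 4i ESC, and fell like SPP1 in all 4 comparisons, by 3.68 ± 0.60 in N3+PGCLC (adjusted p = 0.00393), 6.19 ± 0.60 in DM+PGCLC (adjusted p = 0.000212), 8.72 ± 0.60 in d4 (adjusted p = 5.9e-05) and 7.47 ± 0.60 in d8 DZ+PGCLC (adjusted p = 7.66e-05). ITGA6 and ITGB4, the subunits of the laminin-binding integrin of hemidesmosomes, rose together in DM+PGCLC, by 3.44 ± 0.31 (adjusted p = 0.000159) and 3.92 ± 0.51 (adjusted p = 0.000663). In DZ+PGCLC, ITGA6 fell against 4i ESC, by 3.04 ± 0.31 at day 4 (adjusted p = 0.000235) and 2.92 ± 0.31 at day 8 (adjusted p = 0.000206).

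Markers of other cell types moved with some of the matrix genes. Of 10 fibroblast and stroma markers, 7 were in the tables, and their summed level was 49.3 and 68.08 RPKM in 4i ESC, 49.46 and 172.7 RPKM in N3+PGCLC, 22.62 and 15.33 RPKM in DM+PGCLC, 13.06 and 11.4 RPKM in d4 DZ+PGCLC and 9.79 and 9.457 RPKM in d8 DZ+PGCLC. The order of the groups was that of the summed matrix genes apart from 4i ESC and N3+PGCLC, and at most 3 of the 7 were at 0 in a library. Of 10 endoderm markers, 8 were in the tables, with sums of 7.476 and 36.67 RPKM in 4i ESC, 79.78 and 466.9 RPKM in N3+PGCLC and at most 22.67 RPKM in the other 6 libraries. For 10 amnion and trophoblast markers, all listed, the sums were 5.504 and 9.696 RPKM in 4i ESC, 100.9 and 433.7 RPKM in N3+PGCLC and 10.13 to 46.26 RPKM elsewhere. For 6 listed endothelial markers of 10 they were 31.01 and 69.04 RPKM in N3+PGCLC and 5.01 to 44.56 RPKM elsewhere.

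In N3+PGCLC, replicate 2 thus had the higher sum for each of these marker lists. The most abundant genes weigh most in such sums. HAND1 had levels of 4.89 and 8.05 in N3+PGCLC replicates 1 and 2, and APOA1 of 5.66 and 8.37. TFAP2A, VTCN1, MEOX1 and ESAM were lower in replicate 2. Of the matrix genes, 17 were higher in N3+PGCLC replicate 2 by over 1 on the log2 scale and 6 lower. LUM, NID2 and FN1 were among the higher ones, while COL3A1 differed by 0.05 between the libraries and LAMA4 and COL2A1 were higher in replicate 1. In 4i ESC, 15 matrix genes were over 1 higher in replicate 2 and 1 lower, and in DM+PGCLC 2 were higher and 20 lower in replicate 2. All cells had passed a sort on TNAP, NANOS3 or DAZL before RNA was taken. In N3+PGCLC replicates 1 and 2, the summed level of 7 early germ cell markers was 1301 and 743.5 RPKM. That of 6 pluripotency markers was 1676 and 1219 RPKM. The early germ cell sum was 112.3 and 128.1 RPKM in 4i ESC and 716.2 and 852.4 RPKM in DM+PGCLC. It was 137.9 and 107.6 RPKM in d4 and 225.3 and 214.7 RPKM in d8 DZ+PGCLC. TFAP2C, KIT and PDPN were called lower than in 4i ESC in both DZ+PGCLC groups. SOX17, also a transgene of that line, was called higher in both, PRDM1 was called higher in d4, and NANOS3 and CD38 were called in neither. The part of other cells in the matrix levels was not tested.

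**Figure D5:**
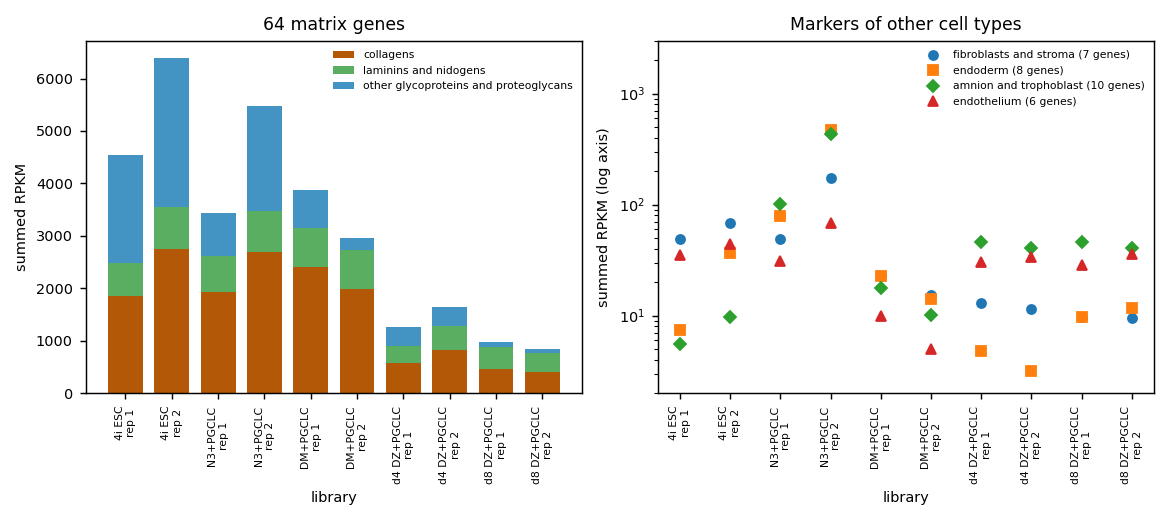
Left, summed RPKM of the 64 matrix genes in each library, stacked as collagens, laminins with nidogens, and the other glycoproteins and proteoglycans. Right, summed RPKM on a log axis of the listed markers of fibroblasts and stroma, endoderm, amnion and trophoblast, and endothelium in the same libraries. The matrix sum is lowest in the 4 DZ+PGCLC libraries, and all 4 marker sums are highest in N3+PGCLC replicate 2.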

How the data were processed

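Bulk RNA-seq was analysed in 10 libraries, and 3 CUT&RUN samples of the 13 in the series were not analysed here. The authors made libraries from 300 ng of total RNA with rRNA depletion and a directional kit, trimmed reads with Trim Galore, mapped them with STAR to GRCh38.p13 with unique hits kept, and deposited log2(RPKM + 0.1) per library, with RPKM from Cufflinks. The processing notes also name HOMER, Bowtie2 2.2.5 and hg38. The 3 gene tables also hold the authors' edgeR log2 fold changes and FDR values against 4i ESC, and 8 further tables hold gene ontology enrichment, and none of these were used. Because the deposited values are not counts, the read depth per library could be given only relative to 4i ESC replicate 1.

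The union of the 3 tables was read once per gene. Levels were tested with limma 3.58.1 (R 4.3.3, with an intensity trend) on all 10 libraries with 5 residual degrees of freedom, over 9706 listed genes, in 6 comparisons. The script was tested on simulated data. On the deposited log2(RPKM + 0.1) scale, changes of genes near the pseudocount are understated, and no fold was given against a group at 0. The 2 replicates per group limit the precision. Genes were named as the called members with the largest differences (up to 6 in each direction and comparison, with a group mean of at least 1 RPKM) and 12 genes whatever their calls, and genes of the 3 pathway lists as the 3 called with the largest differences in each direction and comparison. COL4A4, COL4A5, COL4A6, COL6A1, COL6A2, COL9A3, COL18A1, LAMB2, DCN and THBS1, partners or relatives of these genes, were chosen after their values were seen. Alternatives were the 4 libraries compared alone, a pseudocount of 1, a filter of 1 RPKM in 2 libraries, quantile normalization, a replicate block, the adjusted p alone and each library left out. The members and lists were chosen with earlier results of these data known. Promoter sequences came from RefSeq (GRCh38.p14) and the intervals from the GRCh38 genome, with Python 3.11.15 and pandas 2.3.3. Of the 64 genes, 1 is counted but its values are not reported here.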

Additional observations from a re-analysis of the deposited data

How the results depend on the processing

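The counts of matrix genes rest on the error shared by 5 groups. With only the 4 libraries compared, 5 genes were higher in N3+PGCLC than in 4i ESC (14 with all 10 libraries), 13 were lower in DM+PGCLC (21), and from N3+PGCLC to DM+PGCLC 3 were higher (7) and 8 lower (16). This fit has fewer residual degrees of freedom, and the shares of all listed genes fell too, in these results from 13.8% to 4.48%, 21.1% to 16.9%, 13.9% to 4.83% and 12.1% to 2.23%. Among the named genes, 22 calls were lost in this fit and 2 were gained. Those lost include LAMA4 (limma, adjusted p = 0.0725) and VCAN (adjusted p = 0.0934) in N3+PGCLC against 4i ESC. They also include COL6A3 in d4 DZ+PGCLC against 4i ESC (adjusted p = 0.0702) and COL21A1 from N3+PGCLC to DM+PGCLC (adjusted p = 0.0543). Quantile normalization gave 8 genes higher in d4 DZ+PGCLC than in 4i ESC (5) and moved the median of all listed genes from 0.19 to 0.00 between d4 and d8 DZ+PGCLC, where 3 genes were then higher and 22 lower (4 and 15). Among all listed genes that setting turned 15.4% higher and 8.3% lower into 12% and 12.9% in this comparison, and 17.3% and 24.6% into 22.2% and 19.9% in d4 DZ+PGCLC against 4i ESC. A pseudocount of 1 gave 4 genes higher in d8 DZ+PGCLC (7). With each library left out in turn, higher and lower calls ran from 8 to 14 and 6 to 12 in N3+PGCLC, 6 to 11 and 15 to 23 in DM+PGCLC, 5 to 7 and 20 to 31 in d4 DZ+PGCLC, 5 to 7 and 31 to 40 in d8 DZ+PGCLC, 3 to 6 and 11 to 20 from N3+PGCLC to DM+PGCLC, and 3 to 5 and 9 to 14 from d4 to d8 DZ+PGCLC. A group left with 1 library was taken to vary like the others. The causes were not tested. Of 90 calls of named genes, 62 held whichever library was left out and 28 were lost without at least 1, and no sign of a call turned under any alternative. With the replicate block the counts were 14 and 9, 9 and 20, 5 and 27, 6 and 38, 5 and 15, and 4 and 14 in the order of these comparisons. The replicate numbers were not taken to pair the samples, since the correlation of replicate differences over listed genes was -0.129 to 0.1 in 10 pairs of groups. It was lowest between N3+PGCLC and DM+PGCLC, and with their numbers crossed in the block, an alternative chosen after seeing the data, 5 genes were higher and 20 lower. Genes under about 1 RPKM are limited by depth, which was lowest in d4 DZ+PGCLC replicate 2, and the 6 matrix genes outside the tables have no value, which does not show that they were unchanged.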

Other observations

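Matrix genes that the naming rule did not reach were looked at after their values were seen. COL26A1, a collagen first described in testis and ovary, had levels of 5.50 to 6.60 in the 6 libraries of 4i ESC, N3+PGCLC and DM+PGCLC and of 3.12 to 3.27 in the 4 DZ+PGCLC libraries. Against 4i ESC it fell by 2.73 ± 0.14 in d4 DZ+PGCLC (limma, adjusted p = 2.7e-05) and fell by 2.68 ± 0.14 in d8 DZ+PGCLC (adjusted p = 1.79e-05). COL14A1 had levels of 2.70 and 2.89 in DM+PGCLC and of -1.37 and -1.58 in d8 DZ+PGCLC. COL13A1, a transmembrane collagen of the neuromuscular junction, had levels of 1.32 to 4.34 in the first 3 groups and of -0.70 or below in the DZ+PGCLC groups. LAMB4, a laminin beta chain, had a value of 0 RPKM in each 4i ESC library and in N3+PGCLC replicate 2, and levels of -1.22 and -0.72 in d4 and of -0.17 and -1.43 in d8 DZ+PGCLC. COL24A1 and COL28A1, both under 1 RPKM in all group means, were listed at 0 in the 2 DM+PGCLC libraries.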
